A study of Mus musculus with 16 samples.

Results

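Livers of CYP7A1-transgenic mice fed a Western diet were compared with livers of the same genotype fed chow. The comparison rests on 8 of the 16 arrays of the study, chosen by the genotype and the diet given in each sample's title: 4 arrays of transgenic mice on the Western diet and 4 of transgenic mice on chow. All mice were male C57BL/6 and gave 1 array each, and the titles mark each as WT, for wild type, or Tg, for the CYP7A1 transgene, beside its diet. The diets were eaten for 4 months from an age of 12 to 14 weeks, in individual cages, and the livers were taken at an age of 6 months after a fast of about 16 h. In the Western diet 42% of calories came from fat and 0.2% cholesterol was present, whereas the control diet was standard laboratory chow. The 8 arrays of WT mice on the same diets serve below as the most similar comparison and share no array with the Tg comparison. The promoter that drives the transgene, the species of its coding sequence and the number of transgenic lines are not stated in the labels.

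CYP7A1 catalyses the first and rate-limiting step of the classic pathway that turns cholesterol into bile acids. Hepatocytes keep their sterol level through SREBP2, a membrane-bound transcription factor that is released when membrane cholesterol is low and that activates the genes of cholesterol synthesis and uptake, and cholesterol from the diet normally holds it back. Bile acids in turn act on the nuclear receptor FXR, which is known to raise the export pump Abcb11 and to lower Cyp7a1 and Cyp8b1.

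The signal of mouse Cyp7a1 was read first as a check of the labels. On the log2 scale the 4 Tg chow arrays read 7.85, 6.46, 7.29 and 6.66, the 4 Tg Western diet arrays 6.53, 6.28, 6.24 and 7.36, and the 8 WT arrays between 10.02 and 12.41. All 8 arrays labelled Tg therefore lay below all 8 labelled WT, with a genotype difference of -4.62 on the log2 scale on chow (limma, adjusted p = 1.64e-06), which separates the labelled genotypes but runs opposite to the name of the transgene. The labels do not state whether the probe of this row reads the transgene, and Tg below means labelled Tg. Between diets the 2 Tg groups overlapped for Cyp7a1 (log2 fold change -0.47 ± 0.42 SE, adjusted p = 0.523).

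The mean raw signal of the 8 Tg arrays ran from 348.1 to 401 intensity units. The 16 pairs of 1 chow and 1 Western diet array had rank correlations of 0.931 to 0.939. Tg chow arrays were as close to each other (0.931 to 0.939), and Tg Western diet arrays were closer to each other (0.940 to 0.944). Of 21 hepatocyte identity genes listed, 19 were on the array and 17 passed the signal filter. With the diet 1 of the 17 rose and 1 fell (11.8% called, against 9.73% of all genes). Adipocyte, muscle and pancreas markers such as Adipoq, Lep, Plin1, Acta1, Ckm and Cpa1 lay under the signal filter. Of the 4 markers of adipocytes, muscle, pancreas and red cells that passed it, Cela1, an elastase known from pancreas, rose (log2 0.50, limma, adjusted p = 0.0191) and Hba-a1 fell. The Cela1 call was lost without Tg chow replicate 3 or Tg Western diet replicate 1, 2 or 4 (log2 0.40 to 0.48). Tg chow replicate 4 stood apart from the other 3 chow arrays in several gene lists. Relative to the Tg chow mean, its mean log2 signal was -0.17 for collagens (the others 0.06), -0.21 for triglyceride assembly (the others 0.05 to 0.09), 0.38 for 22 macrophage markers (the others -0.15 to -0.09), 0.45 for 13 Kupffer cell markers (the others -0.17 to -0.11) and 0.58 for 16 immediate-early genes (the others -0.35 to 0.00). Tg Western diet replicate 2 read 0.66 and 0.58 for the macrophage and Kupffer lists, where the other 3 read 0.06 to 0.19 and -0.13 to 0.02. List results for collagens, macrophage, Kupffer cell and immediate-early genes are given below with and without Tg chow replicate 4. The figures use all arrays. For triglyceride assembly the median log2 fold change in Tg was -0.12 with all arrays and -0.28 without Tg chow replicate 4. In whole liver RNA, a change in the number of cells of a type and a change in RNA per cell cannot be told apart.

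A gene was called when its adjusted p (limma, Benjamini-Hochberg over the 7788 genes tested) was under 0.05. The Western diet changed 758 genes in Tg livers, which is 9.73% of those tested, with 395 higher (5.07%) and 363 lower (4.66%). At 2-fold or more, 37 were higher and 19 lower, and at 1.5-fold or more 133 and 71. The median log2 fold change over all genes tested was -0.001. For 1327 genes (17.0%) all 4 arrays of one diet lay above all 4 of the other, 649 with the Western diet arrays higher. The number called fell to 481, 477 or 462 when Tg Western diet replicate 1, 2 or 4 was left out. In WT livers the same diets separated 1463 genes (18.8%), 833 higher (10.7%) and 630 lower (8.09%). The test of the difference between the diet effects of the 2 genotypes called 422 genes (5.42%), 169 more positive in Tg (2.17%) and 253 more negative in Tg (3.25%).

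The largest increase was that of Hsd3b5, a hydroxysteroid dehydrogenase that in mice is expressed mainly in male liver. The chow arrays read 8.13, 7.55, 8.42 and 8.78 and the Western diet arrays 11.58, 11.56, 10.99 and 11.48. The groups were far apart, and the rise was 9.10-fold (log2 fold change 3.19 ± 0.20 SE, adjusted p = 1.89e-07). In WT livers Hsd3b5 stayed near the signal filter on both diets (means 6.36 and 6.18), and the difference between genotypes was called (adjusted p = 1.63e-05), with no size given because the WT Western diet mean lies under the filter.

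Car3, a carbonic anhydrase abundant in liver and fat, read 9.59, 9.19, 9.01 and 9.38 on chow and 12.30, 11.98, 11.53 and 11.95 on the Western diet. That is a 6.27-fold rise (adjusted p = 3.72e-06), larger than the 0.90 log2 rise in WT (difference 1.75, adjusted p = 0.00446). Serpina7, the thyroxine-binding globulin, rose 5.84-fold, from a chow range of 6.90 to 8.53 to a range of 9.35 to 10.68 (adjusted p = 0.000156). The groups did not overlap for either gene, and Tg chow replicate 2 was the chow array with the highest Serpina7 signal.

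Hamp2, a hepcidin gene of mice, rose 5.11-fold from 7.77, 8.29, 8.33 and 7.62 to 11.73, 9.81, 9.78 and 10.11 (adjusted p = 0.00603). Its paralog Hamp, the iron hormone itself, had overlapping groups (log2 fold change -0.33, adjusted p = 0.226). The 2 genes are close in sequence, so signal shared between their rows cannot be told apart. Ccnd1, the cyclin that drives entry into the cell cycle, rose 3.83-fold (7.46, 8.14, 7.39 and 8.27 on chow, 10.09, 9.88, 9.64 and 9.39 on the Western diet, adjusted p = 5.33e-05), and it also rose in WT (log2 1.28).

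Other large increases fell in several functions. Gpc1, a cell surface proteoglycan, rose 3.08-fold, Spink1, a trypsin inhibitor, 2.99-fold and Nfe2, a transcription factor known from blood cells, 2.93-fold. Serpina6, the corticosteroid-binding globulin, rose 2.73-fold and Nat8f1, an acetyltransferase of the endoplasmic reticulum family, 2.53-fold. Spink1 and Nat8f1 also rose in WT (log2 1.5 and 0.67), and the WT change of Serpina6 was -0.06. Nfe2 lay under the signal filter in both WT groups. Gamt, which makes creatine, rose 2.49-fold and Aacs, which activates acetoacetate for lipid synthesis, 2.44-fold. The melanin enzyme gene Dct read 6.02 to 6.31 on chow, under the signal filter of 6.29 on average, and 6.46 to 8.43 on the Western diet (adjusted p = 0.0113), so no fold is given. Cxcl1, a neutrophil-attracting chemokine, read 7.77 to 8.08 on chow and 8.5 to 10.96 on the Western diet (log2 1.5, adjusted p = 0.0226), and its call was lost without Tg chow replicate 1 (log2 1.42) or Tg Western diet replicate 4 (log2 1.48).

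**Figure D1:**
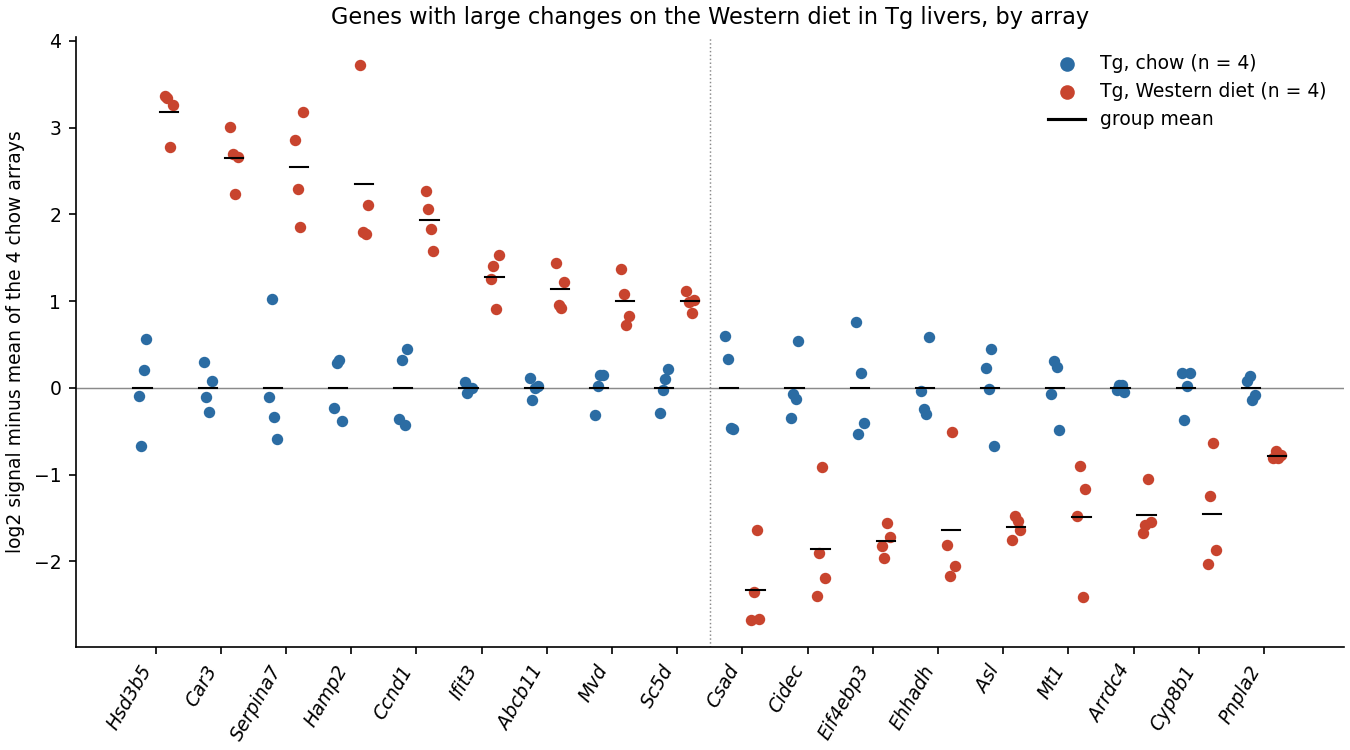
Log2 signal of 18 genes in each of the 8 Tg arrays, after subtraction of the gene's mean over the 4 chow arrays. Blue points are chow arrays, red points Western diet arrays and black bars group means. Hsd3b5 shows the largest rise (mean 3.19) and Csad the largest fall (mean -2.33). For all 18 genes the points of the 2 diets do not overlap, as for 17.0% of all genes tested. All but Abcb11, Mvd, Sc5d and Pnpla2 were chosen among genes without overlap, so for them the gap is a condition of the choice.

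Csad, the enzyme that makes hypotaurine for taurine synthesis, showed the largest decrease. It read 10.86, 10.59, 9.80 and 9.79 on chow and 7.59, 7.91, 8.62 and 7.59 on the Western diet. The fall was 5.03-fold without overlap (adjusted p = 0.000137), and Csad also fell in WT (log2 -1.61, adjusted p = 0.000666). Cidec, a lipid droplet protein that promotes droplet fusion, read 9.67, 9.95, 9.89 and 10.56 on chow and 7.62, 8.11, 9.11 and 7.83 on the Western diet. It fell 3.61-fold (adjusted p = 0.000422) with Tg Western diet replicate 3 the nearest to chow, whereas its WT change was 0.30 (difference -2.15, adjusted p = 0.00296).

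Eif4ebp3, a translation repressor, fell 3.39-fold from a range of 8.24 to 9.53 to one of 6.81 to 7.22 (adjusted p = 0.000227), with a WT change of -0.25 (difference -1.51, adjusted p = 0.0112). Arrdc4, an arrestin-domain protein that responds to glucose, fell 2.76-fold from 9.77 to 9.86 on chow to 8.15 to 8.77 on the Western diet (adjusted p = 3.31e-06). It fell in WT too, by less (log2 -0.65, difference -0.81, adjusted p = 0.00954). The metallothionein Mt1, a zinc and copper binding protein, fell 2.80-fold (13.55 to 14.34 on chow, 11.62 to 13.13 on the Western diet, adjusted p = 0.00374), and Mt2 fell 2.08-fold.

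The haemoglobin rows Hbb-bt and Hba-a1 fell 3.70-fold and 2.71-fold (adjusted p = 0.00071 and 0.00194). Both fell by similar amounts in WT (log2 -1.87 and -1.68). These genes mark red cells and have near-identical copies, and of the erythroid enzyme Alas2 no call was made. Serpina1e, a member of the near-identical alpha-1 antitrypsin family, fell 3.63-fold in Tg (range 14.08 to 14.80 on chow, 11.69 to 13.67 on the Western diet, adjusted p = 0.00491) and its WT change was -3.61.

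Part of the cholesterol synthesis genes rose on the Western diet in Tg livers, and none fell. Of the mevalonate pathway from acetyl units to squalene, 5 listed genes were tested and 3 rose, Mvd, Fdps and Pmvk, against 5.07% of all genes. None fell, and the median log2 fold change was 0.58 in Tg and -0.45 in WT. In WT 2 of the 5 fell, against 8.09% of all genes. Of 10 tested enzymes after squalene, 3 rose, Sc5d, Dhcr7 and Lss, and none fell. All 10 had positive fold changes, and the median was 0.40 in Tg and -0.79 in WT. In WT 8 of the 10 fell, against the same 8.09%. The difference between genotypes was called in 4 of the 5 and in 9 of the 10, each time more positive in Tg, against 2.17% of all genes.

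Stretches of the promoters of 4 of the called genes are shown because these genes rose and none of either list fell. They are the 160 bases before the transcription start in RefSeq, build GRCm38.p6, 5′ to 3′ on the gene's strand. Capitals mark CCAAT or its reverse complement, the core of the element bound by the factor NF-Y, a known partner of SREBP at sterol genes. Mvd lies at chr8:122443423-122443582 (minus strand), Sc5d at chr9:42264301-42264460 (minus), Dhcr7 at chr7:143830054-143830213 (plus) and Lss at chr10:76531445-76531604 (plus).
Mvd: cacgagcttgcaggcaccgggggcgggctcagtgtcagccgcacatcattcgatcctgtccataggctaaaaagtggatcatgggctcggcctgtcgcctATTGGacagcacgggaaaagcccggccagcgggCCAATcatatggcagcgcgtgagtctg
Sc5d: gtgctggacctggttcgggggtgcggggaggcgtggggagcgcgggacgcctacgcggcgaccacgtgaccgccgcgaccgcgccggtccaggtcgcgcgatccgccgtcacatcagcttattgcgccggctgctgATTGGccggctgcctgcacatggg
Dhcr7: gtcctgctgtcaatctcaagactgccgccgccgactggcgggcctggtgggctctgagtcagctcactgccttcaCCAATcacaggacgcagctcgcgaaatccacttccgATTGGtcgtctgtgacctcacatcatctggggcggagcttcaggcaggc
Lss: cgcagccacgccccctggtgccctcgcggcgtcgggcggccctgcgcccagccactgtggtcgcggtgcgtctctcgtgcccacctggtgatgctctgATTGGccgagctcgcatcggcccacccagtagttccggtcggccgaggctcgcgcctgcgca
Of the 15 tested genes of both lists, 13 had a promoter window, and all 13 held CCAAT on either strand within 250 bases before a start. Of all 27025 RefSeq genes with windows, 37.5% did, as did 33.8% of the 32851 windows, some genes having several. A match of letters is a description and not a bound site.

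Mvd, which makes isopentenyl diphosphate, read 8.15, 8.48, 8.61 and 8.61 on chow and 9.84, 9.55, 9.19 and 9.29 on the Western diet. It rose 2.00-fold (adjusted p = 0.000929) without overlap between the groups. Pmvk, the kinase of the step before it, rose 1.42-fold (8.75, 8.99, 8.83 and 8.76 against 9.33, 9.41, 9.21 and 9.39, adjusted p = 0.00156) and fell in WT (log2 -0.45, adjusted p = 0.00124). The test of the difference for Pmvk gave 0.95 (adjusted p = 0.000483).

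Fdps, the synthase of farnesyl diphosphate, was 1.56-fold higher in Tg (adjusted p = 0.0304) and fell by 0.95 on the log2 scale in WT (difference 1.6, adjusted p = 0.00165). Its Tg call was lost when Tg chow replicate 1 or 3 or Tg Western diet replicate 1, 2 or 4 was left out (log2 0.55 to 0.65), with no change of sign. Hmgcs1, the synthase at the head of the pathway, read 13.93 to 14.22 on chow and 14.61 to 14.76 on the Western diet, a log2 change of 0.58 that did not pass (adjusted p = 0.0638). For Idi1, the isomerase, the groups overlapped (0.49, adjusted p = 0.145). Its difference between genotypes (1.04, adjusted p = 0.0479) was lost without any 1 of 12 arrays, all but WT chow replicate 4, Tg chow replicates 3 and 4 and Tg Western diet replicate 1 (0.86 to 1.07).

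Sc5d, a desaturase late in sterol synthesis, read 7.81, 8.07, 8.20 and 8.31 on chow and 9.22, 9.10, 8.96 and 9.11 on the Western diet, a 2.00-fold rise (adjusted p = 5.33e-05). Its WT change was 0.20 (adjusted p = 0.221). Dhcr7, which makes the final reduction to cholesterol, rose 1.6-fold (8.41, 8.47, 8.58 and 8.69 against 9.36, 9.38, 8.94 and 9.19, adjusted p = 0.00111). Lss, the cyclase that closes the sterol rings, rose 1.56-fold (9.45, 9.62, 10.11 and 10.001 against 10.58, 10.34, 10.42 and 10.43, adjusted p = 0.00509). Both genes fell in WT (log2 -0.45 and -0.57), and for both the 4 Western diet arrays of Tg lay above the 4 chow arrays.

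The Tg changes of the other enzymes after squalene did not pass the test, and all of these genes but Ebp fell in WT. Squalene epoxidase Sqle changed by 0.48 in Tg (adjusted p = 0.0692) and was lower in WT, to a mean under the filter, and the demethylase Cyp51 by 0.41 (adjusted p = 0.102) and -1.14. Msmo1, a sterol oxidase, changed by 0.39 and -1.32, and Tm7sf2, a reductase, by 0.39 and -1.29. Hsd17b7, another enzyme of this list, changed by 0.25 and -1.08. The differences for these 5 genes were all called and, Sqle aside, ran from 1.33 to 1.71 (adjusted p from 8.78e-05 to 0.00142). Nsdhl, a dehydrogenase of the list, changed by 0.33 and -0.42. Ebp, the isomerase, changed by 0.19 and -0.26, and its difference was the one not called (0.44, adjusted p = 0.0804).

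The Tg chow level from which these genes rose was itself above that of WT. Relative to the Tg chow mean, the 10 genes after squalene averaged -1.92 to -1.55 on the 4 WT chow arrays and -2.59 to -2.38 on the 4 WT Western diet arrays. The Tg chow arrays read -0.18 to 0.08 and the Tg Western diet arrays 0.37 to 0.58. The 4 groups did not overlap. The 5 mevalonate genes were arranged in the same way, at -2.48 to -1.89 and -2.74 to -2.68 in WT and at -0.22 to 0.14 and 0.54 to 0.71 in Tg.

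**Figure D2:**
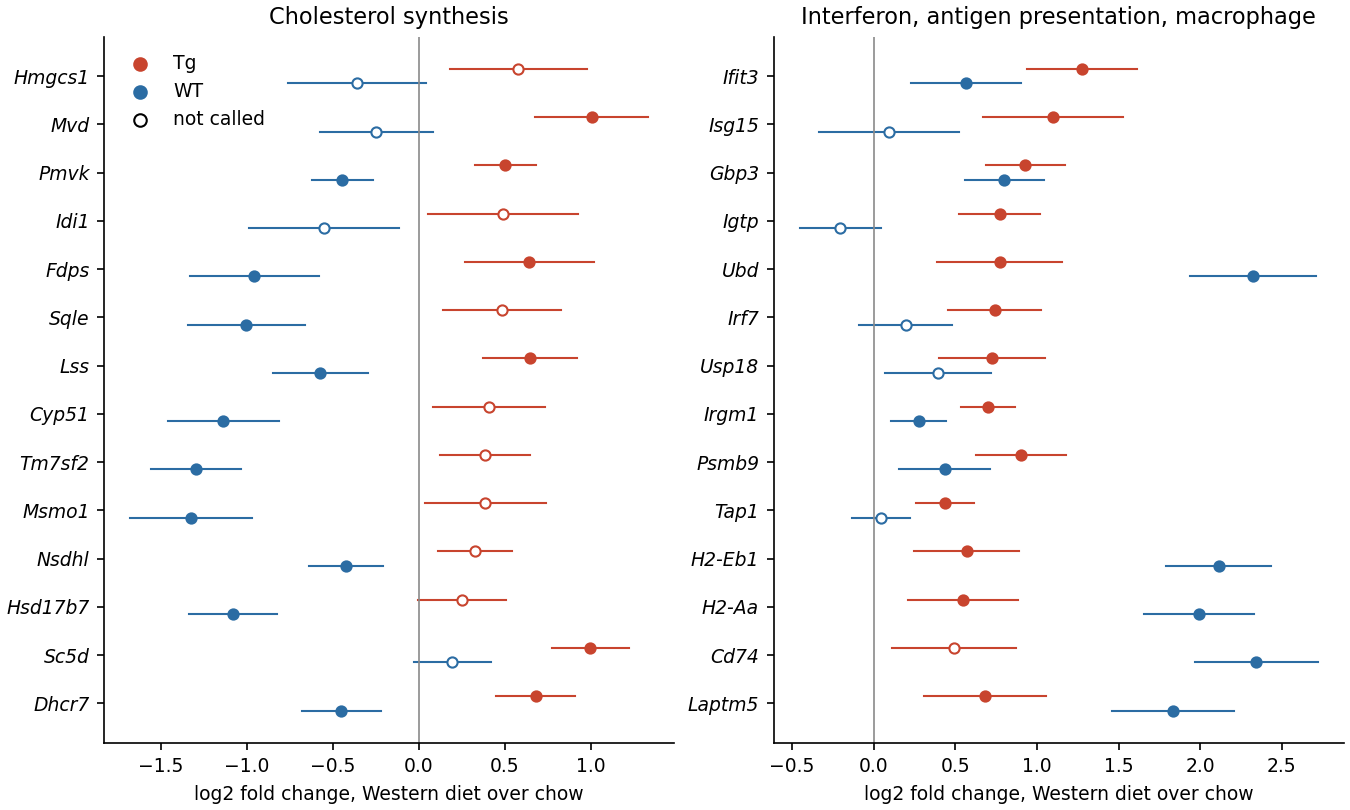
Log2 fold change, Western diet over chow, in Tg (red) and WT (blue) with 95% confidence intervals from the limma fit (4 arrays a group), filled where called. On the left all 14 cholesterol synthesis genes drawn lie above 0 in Tg, and all but Sc5d lie below 0 in WT. On the right Ifit3 (1.28 and 0.57) lies further right in Tg, with no called difference (limma, adjusted p = 0.0815). The interferon-stimulated gene Ubd (difference -1.55) and H2-Eb1, H2-Aa, Cd74 and Laptm5 lie further right in WT.

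Among 10 genes of SREBP2 regulation and sterol uptake 3 rose in Tg, against 5.07% of all genes, and none fell (median 0.26, WT -0.13). The difference was more positive in Tg for 4, against 2.17% of all genes. Lrp1, a receptor for lipoprotein remnants, rose 1.84-fold (7.09 to 7.77 on chow, 8.17 to 8.86 on the Western diet, adjusted p = 0.00452). Rdh11, a retinol dehydrogenase known as an SREBP target, rose 1.66-fold (8.52, 8.79, 9.11 and 9.12 against 9.76, 9.64, 9.40 and 9.65, adjusted p = 0.000911) and fell in WT (log2 -0.50), a difference of 1.23 (adjusted p = 0.000523). Stard4, a cholesterol carrier, rose 1.57-fold (adjusted p = 0.0415) and fell in WT (-0.82). The Stard4 call was lost without any single Tg array other than Western diet replicate 3 (log2 0.59 to 0.71), and the groups did not overlap. Srebf2 itself changed by 0.27 (adjusted p = 0.306) and Insig1, which retains SREBP in the endoplasmic reticulum, by 0.24 (adjusted p = 0.12), with -0.40 in WT.

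Of 20 fatty acid synthesis genes, 9 rose in Tg, against 5.07% of all genes, and none fell. The median was 0.39, against 0.09 in WT. In WT 4 rose and 3 fell, against 10.7% and 8.09% of all genes. The difference between genotypes was called for 7, all more positive in Tg, against 2.17% of all genes. The mean of the 20 genes lay at -0.07 to 0.07 on the 4 Tg chow arrays and at 0.34 to 0.63 on the 4 Western diet arrays, without overlap. Without Tg chow replicate 2, 8 members were called, and 11 were called with a term for replicates 1 and 2 against 3 and 4. Other alternatives counted lay within this range.

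Scd1, the desaturase that makes oleate, read 14.00, 13.60, 13.96 and 12.59 on chow and 14.78, 14.45, 14.27 and 14.71 on the Western diet, a 2.02-fold rise (adjusted p = 0.0073). Fads2 and Fads1, desaturases of polyunsaturated fatty acids, rose 1.85-fold and 1.59-fold (adjusted p = 0.000911 and 0.00117). Fads1 changed by -0.31 in WT, a difference of 0.98 (adjusted p = 0.0015). Acss2, which makes acetyl-CoA from acetate, rose 1.76-fold (9.53 to 9.98 on chow, 10.09 to 10.99 on the Western diet, adjusted p = 0.00401), and Acly, which makes it from citrate, 1.41-fold (adjusted p = 0.0113). For both the WT change was negative and the difference was called (0.97 and 0.75).

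Some lipogenic genes moved alike in the 2 genotypes. Acaca, the carboxylase that commits carbon to fatty acids, rose 1.71-fold in Tg and by 0.73 on the log2 scale in WT, and the elongase Elovl6 rose 1.49-fold in Tg and by 0.53 in WT. The intervals of their differences included 0 (difference 0.04 for Acaca and 0.05 for Elovl6). Thrsp, a lipogenic regulator, rose in both (log2 1.21 and 1.33), with Tg Western diet replicate 3 at 7.14 inside the chow range of 6.80 to 7.25. Its Tg call was lost without Tg chow replicate 2 (1.12) or Tg Western diet replicate 1 (1.03) or 4 (0.96). Srebf1, the lipogenic SREBP gene, changed by 0.39 in Tg (adjusted p = 0.0616) and rose by 0.87 in WT, and Fasn, which makes palmitate, was near the filter with overlapping groups (0.22, adjusted p = 0.253).

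The paired sterol exporters Abcg8 and Abcg5, which pump cholesterol into bile, were the 2 members called among 10 sterol export and LXR target genes. That is 20%, none lower, against 9.73% of all genes called. Abcg8 read 10.18, 10.26, 9.91 and 9.56 on chow and 11.44, 10.98, 10.30 and 11.29 on the Western diet, a 2.03-fold rise (adjusted p = 0.0109). Abcg5 rose 1.68-fold (11.45, 11.49, 11.48 and 11.05 against 12.37, 11.96, 11.70 and 12.44, adjusted p = 0.0112). Both also rose in WT, by 0.93 and 1.22 on the log2 scale, and neither difference was called (adjusted p = 0.918 and 0.297).

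Among 16 bile acid synthesis genes 3 rose and 2 fell, against 5.07% and 4.66% of all genes. Under median scaling none of the list was called higher and 2 were called lower. The clearest change was that of Cyp8b1, the sterol hydroxylase that makes cholic acid. It read 13.30, 12.76, 13.14 and 13.30 on chow and 11.09, 11.88, 12.49 and 11.26 on the Western diet, a 2.73-fold fall without overlap (adjusted p = 0.00558), and it fell in WT as well (log2 -1.11). Slc27a5, which links bile acids to coenzyme A, rose 1.33-fold (adjusted p = 0.0163), and its call was lost without Tg Western diet replicate 2 (log2 0.36) and under median scaling (0.35). Cyp27a1, which opens the alternative pathway, changed by -0.17 (adjusted p = 0.332). The remaining 3 calls had fold changes under 1.4, and the list's count of 5 fell to 1 to 3 without Tg chow replicate 1, 2 or 4 or Tg Western diet replicate 1, 2 or 4.

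Abcb11, the bile salt export pump, led the 16 genes of bile acid transport and sensing, of which 3 rose and 1 fell (25% called, against 9.73% of all genes). It read 9.68, 9.42, 9.55 and 9.58 on chow and 10.99, 10.51, 10.48 and 10.78 on the Western diet, a 2.20-fold rise (adjusted p = 6.56e-05), and rose less in WT by value (log2 0.64) with no called difference (0.49, adjusted p = 0.127). Atp8b1, the flippase of the canalicular membrane, rose 1.31-fold (adjusted p = 0.0116). The uptake carrier Slco1b2 rose 1.26-fold (adjusted p = 0.0222), a call lost without Tg chow replicate 1 or 3 or Tg Western diet replicate 1 or 4 (log2 0.29 to 0.32) and under median scaling (0.26). Klb, the co-receptor for the gut hormone that represses bile acid synthesis, fell 1.40-fold (8.59 to 8.82 on chow, 7.99 to 8.43 on the Western diet, adjusted p = 0.0111) and fell in WT (-0.43). Cyp2c70, which makes muricholic acids in mice and belongs to a family of near-identical genes, rose 2.41-fold in Tg (10.55 to 11.47 against 11.92 to 12.83, adjusted p = 0.00165) and by 2.23 on the log2 scale in WT.

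Around taurine, the conjugation partner of mouse bile acids, 3 of 14 genes fell and 1 rose (28.6% called, against 9.73% of all genes). Beside Csad, these were Nnmt, which methylates nicotinamide and fell 2.74-fold (11.29 to 12.12 on chow, 9.73 to 10.88 on the Western diet, adjusted p = 0.00525), and Ahcy, which clears the product of methylation and fell 1.54-fold (adjusted p = 0.00545). The member that rose was Gamt, a consumer of methyl groups, with chow arrays at 9.23, 8.65, 8.83 and 9.19 and Western diet arrays at 10.81, 10.64, 9.70 and 10.02 (adjusted p = 0.0018). Nnmt and Ahcy fell in WT too (-1.85 and -0.75), whereas Gamt changed there by 0.13.

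Some genes of lipid storage and fatty acid use fell. Of 14 lipid droplet proteins 3 fell and none rose (4.66% of all genes fell). For 3 the difference was more negative in Tg, against 3.25% of all genes. Pnpla2, the main triglyceride lipase of the droplet, read 11.22, 11.27, 11.004 and 11.06 on chow and 10.34, 10.41, 10.33 and 10.37 on the Western diet. That 1.72-fold fall (adjusted p = 5.33e-05) exceeded the WT change of -0.21 (difference -0.57, adjusted p = 0.00954). Angptl4, a secreted inhibitor of lipoprotein lipase, fell 1.66-fold (adjusted p = 0.00364) and fell in WT (-0.94). Mttp, which loads lipid onto lipoproteins, fell 1.28-fold (9.51 to 9.60 on chow, 9.10 to 9.34 on the Western diet, adjusted p = 0.00446) and fell in WT (-0.31). Lpl itself changed by 0.31 in Tg with overlapping groups (adjusted p = 0.512) and rose by 3.08 in WT, a difference of -2.77 (adjusted p = 0.000652). No apolipoprotein gene was called among 15 tested (limma), and 1 was without Tg Western diet replicate 1.

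Of 26 fatty acid oxidation genes and targets of the fasting receptor PPARA, 9 fell, against 4.66% of all genes, and none rose. The median was -0.28 in Tg and -0.27 in WT, where 10 fell, against 8.09% of all genes. No difference between genotypes was called in this list. Ehhadh, the peroxisomal bifunctional enzyme, read 12.80, 12.60, 12.54 and 13.43 on chow and 11.03, 10.67, 12.33 and 10.79 on the Western diet, a 3.10-fold fall (adjusted p = 0.00524). Cyp4a14, an omega-hydroxylase with near-identical relatives, fell 1.71-fold (14.62 to 14.66 on chow, 13.40 to 14.52 on the Western diet, adjusted p = 0.0122). The long-chain dehydrogenases Acadl and Acadvl fell 1.56-fold and 1.29-fold (adjusted p = 0.00673 and 0.0102), and Acat1, which acts in ketone body metabolism and was not on the list, 2.41-fold (8.78 to 9.01 against 7.13 to 8.16, adjusted p = 0.00034).

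Tg Western diet replicate 3 was the array nearest to chow in all 5 of these genes, and its list mean was -0.06 where the other 3 Western diet arrays read -0.43 to -0.39 and the chow arrays -0.16 to 0.13. Leaving out single arrays gave fewer calls: 4 of 26 without Tg chow replicate 1, 5 without Tg Western diet replicate 1 and 4 without Western diet replicate 2 or 4, and 7 without Tg chow replicate 4.

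Of 17 genes of the urea cycle and amino acid breakdown 5 fell and none rose, against 4.66% of all genes lower (median -0.28). In WT 8 fell, against 8.09% of all genes (median -0.37). The Tg median was -0.16 without Tg chow replicate 1 and -0.17 without Tg chow replicate 3. Asl, which splits argininosuccinate, read 11.29, 11.04, 11.50 and 10.39 on chow and 9.30, 9.58, 9.52 and 9.41 on the Western diet, a 3.03-fold fall (adjusted p = 0.00107). Etnppl, a phospholyase that degrades phosphoethanolamine, fell 2.76-fold (9.13 to 10.25 against 8.0 to 8.33, adjusted p = 0.00132). Got1, an aspartate aminotransferase, fell 2.36-fold (8.34 to 9.59 against 7.77 to 8.07, adjusted p = 0.0105). All 3 also fell in WT, with log2 fold changes of -1.90 to -1.18 (Asl, Etnppl and Got1). Arg1, which releases urea, fell 1.41-fold (adjusted p = 0.00619), and Cps1, the first enzyme of the cycle, 1.74-fold (adjusted p = 0.0147), a call that was lost without Tg chow replicate 1 (log2 -0.69).

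Tg chow replicate 4 was the chow array closest to the Western diet arrays on this list (-0.40, the other chow arrays -0.08 to 0.30, the Western diet arrays -0.45 to -0.32), and 6 members were called without it. Of 15 glucose genes 1 was called (6.67%, against 9.73% of all genes). It was Gys2, the liver glycogen synthase, which fell 1.76-fold (9.51 to 9.71 on chow, 8.51 to 8.98 on the Western diet, limma, adjusted p = 0.0169). That call was lost without Tg Western diet replicate 1 (log2 -0.77) or 2 (-0.74).

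Interferon-stimulated genes formed the list with the largest share of calls among those of 10 or more genes. Of 25 tested, 18 rose and none fell in Tg, against 5.07% of all genes higher, and all 25 had positive fold changes (median 0.49, all genes -0.001). In WT 10 rose, against 10.7% of all genes (median 0.23). The difference between genotypes was called for 3, against 5.42% of all genes. It was more positive in Tg for Igtp and Irgm1 and more negative for Ubd. The Irgm1 difference (0.43) was lost without any 1 of 11 arrays (0.38 to 0.44), all but WT chow replicates 2 and 4, Tg chow replicate 4, WT Western diet replicate 3 and Tg Western diet replicate 3. Leaving out Tg chow replicate 4 left 17 called, and leaving out any other single Tg array at least 15.

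Promoter stretches of 4 of these genes are shown because 18 of the list rose. They are the 160 bases before a RefSeq start in GRCm38.p6, 5′ to 3′ on the gene's strand, and capitals mark TTTCNNTTTC or its reverse complement, the core of the element bound by interferon-activated complexes of STAT and IRF factors; runs of capitals longer than 10 letters hold overlapping matches. Isg15 lies at chr4:156200819-156200978 (minus strand), Ifit3 at chr19:34583369-34583528 (plus), Gbp3 at chr3:142559884-142560043 (plus) and Irgm1 at chr11:48871421-48871580 (minus).
Isg15: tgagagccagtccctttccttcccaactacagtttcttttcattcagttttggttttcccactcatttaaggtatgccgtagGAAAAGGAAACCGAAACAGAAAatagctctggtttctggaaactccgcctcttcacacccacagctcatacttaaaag
Ifit3: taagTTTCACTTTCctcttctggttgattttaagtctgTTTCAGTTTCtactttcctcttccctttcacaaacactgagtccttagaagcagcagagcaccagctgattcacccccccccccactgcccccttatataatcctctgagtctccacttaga
Gbp3: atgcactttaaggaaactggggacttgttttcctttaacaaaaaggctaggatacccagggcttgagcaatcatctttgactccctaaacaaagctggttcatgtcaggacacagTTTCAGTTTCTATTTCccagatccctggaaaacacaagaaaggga
Irgm1: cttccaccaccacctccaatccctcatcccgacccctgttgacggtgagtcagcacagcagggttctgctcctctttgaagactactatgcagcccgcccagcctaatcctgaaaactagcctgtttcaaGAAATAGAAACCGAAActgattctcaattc
Of the 25 tested genes 22 had a promoter window, and 12 of these held the motif on either strand within 250 bases before a start, against 3.46% of all genes in the table and 2.98% of its windows. Of the 16 called genes with a window 9 held it. As above, the letters do not show that a factor was bound.

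Ifit3, which limits viral RNA translation, read 7.92, 7.79, 7.86 and 7.85 on chow and 9.12, 9.26, 8.77 and 9.38 on the Western diet. The 2.42-fold rise (log2 1.28, limma, adjusted p = 0.000181) exceeded the spread of the chow arrays (SD 0.05). A second Ifit3 row above the filter, of lower signal, changed by 0.71 on the log2 scale. Isg15, a ubiquitin-like modifier, rose 2.14-fold (7.48, 7.5, 7.42 and 7.65 against 8.53, 9.22, 8.19 and 8.49, adjusted p = 0.00295), with a WT change of 0.10 and a difference just outside the threshold (1.0, adjusted p = 0.0516). Usp18, which removes Isg15 from proteins, rose 1.65-fold (8.29 to 8.47 against 8.99 to 9.21, adjusted p = 0.007).

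The guanylate-binding and immunity-related GTPases, which attack vacuoles of intracellular microbes, rose as well. Gbp3 read 7.35, 7.27, 7.46 and 7.48 on chow and 8.15, 8.38, 8.09 and 8.67 on the Western diet, a 1.90-fold rise (adjusted p = 0.000156) close to that in WT (log2 0.93 and 0.80). Igtp rose 1.71-fold (adjusted p = 0.000911) but changed by -0.20 in WT (difference 0.98, adjusted p = 0.00314). Irgm1 rose 1.63-fold (10.69, 10.81, 10.84 and 11.03 against 11.57, 11.55, 11.52 and 11.53, adjusted p = 6.76e-05). The 4 Western diet arrays of Irgm1 lay within 0.05 of each other and above all chow arrays.

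Irf7, the factor that amplifies type I interferon, rose 1.67-fold (adjusted p = 0.00255), and Ubd, a ubiquitin-like protein induced by interferon and TNF, 1.71-fold (6.42 to 6.55 against 6.94 to 7.45, adjusted p = 0.0131). Ubd was the list member whose rise was larger in WT (log2 2.32, difference -1.55, adjusted p = 0.00281). Cxcl9, a chemokine induced by interferon gamma, rose 2.39-fold (7.48 to 7.83 against 8.55 to 9.43, adjusted p = 0.000566).

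Of 18 genes of MHC class I presentation and the immunoproteasome 5 rose, against 5.07% of all genes, and none fell (median 0.21). In WT 6 rose, against 10.7% of all genes (median 0.17). Single arrays left out kept the Tg count at 5. Psmb9, a subunit of the immunoproteasome, read 8.63, 8.41, 8.72 and 8.83 on chow and 9.69, 9.79, 9.09 and 9.62 on the Western diet, a 1.87-fold rise (adjusted p = 0.000697). Psmb10, another such subunit, rose 1.49-fold (adjusted p = 0.00345), and Tap1, which carries peptides to class I molecules, 1.36-fold (6.58 to 6.71 against 6.98 to 7.19, adjusted p = 0.00367). For all 3 the groups did not overlap.

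Markers of lymphocytes were mostly too dim to read. Of 24 T cell, NK cell and B cell markers 19 were on the array and 6 passed the filter, with none called (limma) and a median of -0.02, and Cd3d, Cd3e, Cd8a, Nkg7, Cd79a and Ms4a1 lay under the filter. The mean of these 6 genes ran from -0.11 to 0.08 on chow and from -0.06 to 0.10 on the Western diet. Macrophage markers overlapped between diets too (-0.15 to 0.38 on chow, 0.06 to 0.66 on the Western diet). The part of either cell type in the interferon result was not tested.

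**Figure D3:**
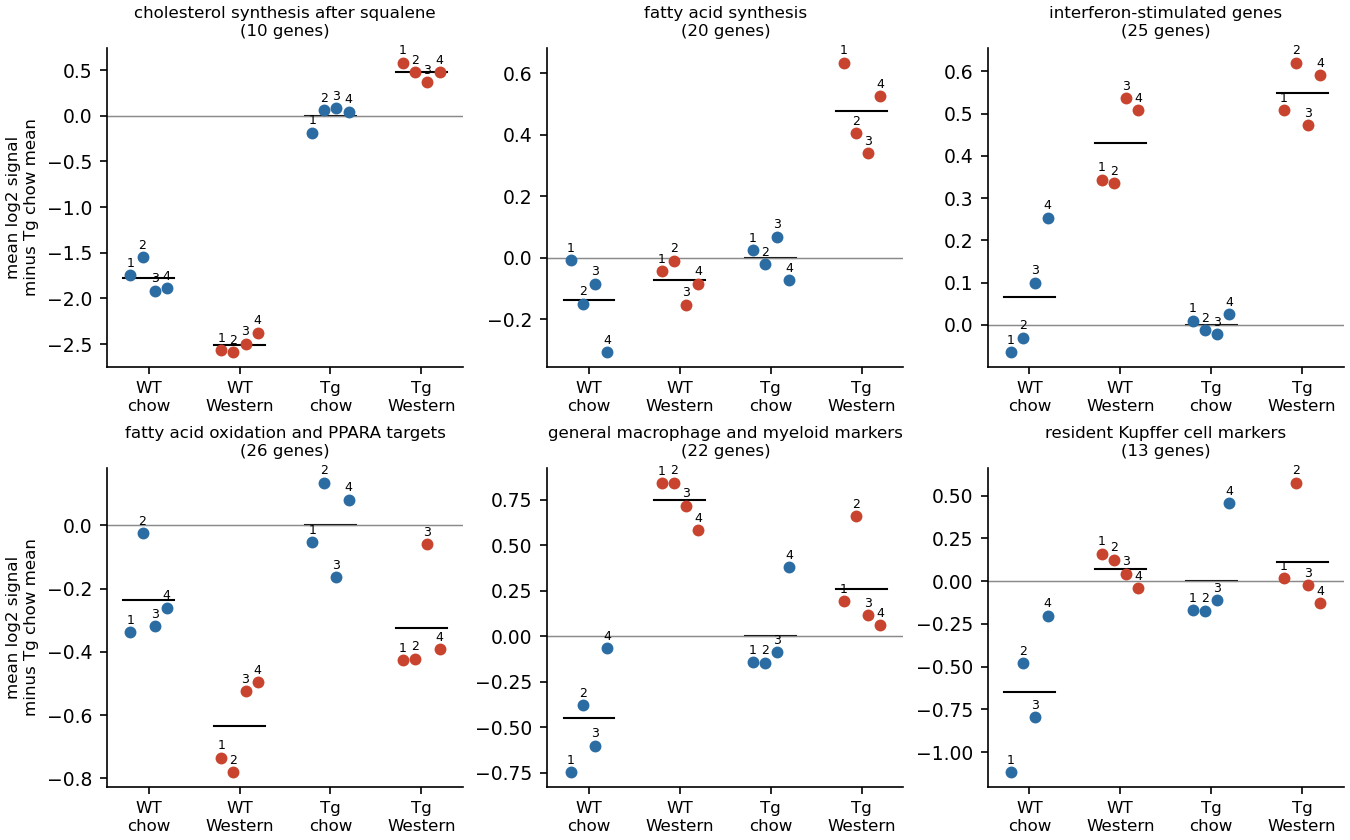
Mean log2 signal of 6 gene lists in each of the 16 arrays, relative to the Tg chow mean; numbers beside the points are replicate numbers, blue is chow, red is Western diet and bars are group means. In Tg the 2 diets are apart for genes after squalene, fatty acid synthesis and interferon-stimulated genes, and overlap for macrophage and Kupffer markers, where Tg chow replicate 4 (0.38 and 0.45) and Tg Western diet replicate 2 (0.66 and 0.58) are highest. Tg Western diet replicate 3 (-0.06) is nearest to chow for fatty acid oxidation.

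Most macrophage genes did not pass the test in Tg. Of 22 general macrophage markers 1 was called in Tg, Laptm5 (4.55% of the list, against 9.73% of all genes). All 22 rose in WT, against 10.7% of all genes (medians 0.30 in Tg and 1.08 in WT). The difference was more negative in Tg for 11, against 3.25% of all genes. Laptm5, a lysosomal protein of blood cells, rose 1.6-fold (9.67 to 9.86 against 10.19 to 10.94, adjusted p = 0.0227) and by 1.83 on the log2 scale in WT (difference -1.16, adjusted p = 0.0122). The Laptm5 call was lost without Tg chow replicate 1 or 3 or Tg Western diet replicate 1 or 2 (log2 0.52 to 0.68). Without Tg chow replicate 4, 4 of the 22 were called and the median was 0.43, and without Tg Western diet replicate 2 the median was 0.10. Western diet minus chow gave a list median of 0.65 with only replicates 1 and 2 of each diet. With only replicates 3 and 4 it was -0.06. The first set holds Tg Western diet replicate 2 and the second Tg chow replicate 4, each the highest Tg array of its diet for this list. The list median therefore depended on single arrays.

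Of 14 genes of lipid-associated macrophages, the cells that take up lipid in fatty tissue, 1 was called in Tg (7.14%, against 9.73% of all genes). In WT 10 rose, against 10.7% of all genes (medians 0.22 in Tg and 1.49 in WT). The difference was called in 9, all more negative in Tg, against 3.25% of all genes. Without Tg chow replicate 4 the Tg count was 3, and without Tg Western diet replicate 2 or 3 it was 2. Gpnmb, a glycoprotein of such cells, read 6.09 to 6.35 on chow and 6.40 to 6.46 on the Western diet in Tg, next to the filter. It rose in WT from a mean under the filter, and the difference was called (adjusted p = 8.78e-05). Trem2, their lipid receptor, changed by 0.10 in Tg (adjusted p = 0.689) and rose by 1.62 in WT (difference -1.52, adjusted p = 0.000369). Lgals3, a galectin, changed by 0.64 in Tg (adjusted p = 0.0836) and by 2.65 in WT, and the elastase Mmp12 by 0.56 (adjusted p = 0.0658) and 2.57. The member called in Tg was Ctsb, a lysosomal protease of many cell types, which rose 1.32-fold (12.83 to 13.00 against 13.28 to 13.32, adjusted p = 0.00289).

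The Kupffer cell list gave 1 call of 13 in Tg (7.69%, against 9.73% of all genes), 2 without Tg chow replicate 4 and none under median scaling. Its median of 0.15 depended on single arrays: it was 0.06, 0.07 and 0.33 without Tg chow replicate 1, 2 and 4, and -0.06, 0.25 and 0.24 without Tg Western diet replicate 2, 3 and 4. Clec4f, their lectin, changed by 0.33 in Tg (adjusted p = 0.195) and by 0.92 in WT, and the scavenger receptor Cd163 by -0.14 (adjusted p = 0.53) and -0.81. With only replicates 1 and 2 of each diet the median diet effect of the list was 0.54, and with only replicates 3 and 4 it was -0.17.

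MHC class II presentation, the task of macrophages, dendritic cells and B cells, showed the same order. In WT all 8 genes tested rose (median 1.82), against 10.7% of all genes. In Tg 3 did (median 0.39), against 5.07% of all genes. For 6 the difference was more negative in Tg, against 3.25% of all genes. H2-Eb1, a class II chain, read 8.24, 8.17, 7.99 and 8.34 on chow and 9.04, 8.40, 8.58 and 9.02 on the Western diet, a 1.49-fold rise (adjusted p = 0.0258), against 2.11 on the log2 scale in WT (difference -1.54, adjusted p = 0.000672). H2-Aa, its partner chain, rose by 0.55 (adjusted p = 0.0375) and H2-DMb1, which loads peptides, by 0.37 (adjusted p = 0.038), both with overlapping groups. The invariant chain Cd74 (0.49, adjusted p = 0.0903) and H2-Ab1 (0.41, adjusted p = 0.179) did not pass.

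These class II calls in Tg were fragile. Without Tg chow replicate 2 or 3 or Tg Western diet replicate 1 or 4 none of the 3 was called, with log2 changes of 0.48 to 0.57 for H2-Eb1, and H2-Aa and H2-DMb1 also lost the call without Tg chow replicate 1 or Tg Western diet replicate 3 (0.46 to 0.58 for H2-Aa and 0.31 to 0.37 for H2-DMb1). Without Tg chow replicate 4 all 3 were called. Class II genes have close relatives, so their rows may share signal.

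Matrix genes showed no broad change in Tg. Of 25 stellate cell and matrix genes none was called in Tg (limma, median 0.09, and 0.05 without Tg chow replicate 4). In WT 18 rose, against 10.7% of all genes (median 0.55). The difference was called in 8, more negative in Tg, against 3.25% of all genes. Leaving out Tg chow replicate 4 gave 2 calls in Tg. Timp1, an inhibitor of matrix proteases, had chow means under the filter in both genotypes, did not pass in Tg (adjusted p = 0.14) and was more negative in Tg by the test of the difference (adjusted p = 0.0118), and Sparc, a matrix-binding protein, changed by 0.16 and 0.95 (difference -0.79, adjusted p = 0.0159). Col1a1, the main fibrillar collagen, stayed under or at the filter in Tg (5.95 to 6.36) and rose by 0.76 in WT, with a difference that was not called (adjusted p = 0.136). Of 12 collagens 1 was called in Tg (8.33%, against 9.73% of all genes) and none without Tg chow replicate 4. In WT 9 were called, against 18.8% of all genes.

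**Figure D4:**
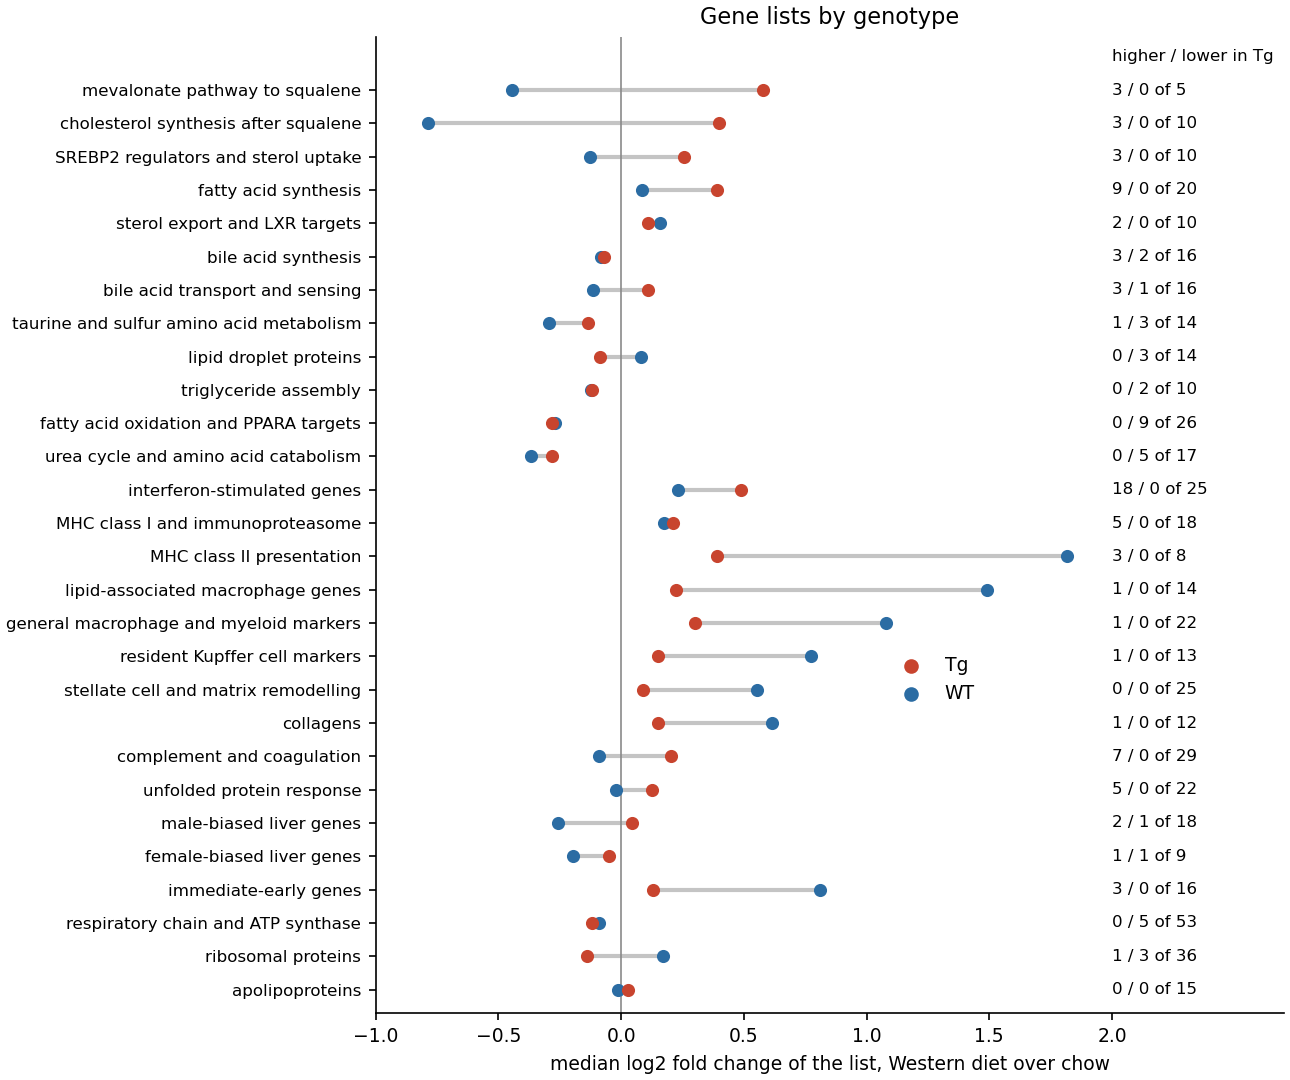
Median log2 fold change, Western diet over chow, of 28 gene lists in Tg (red) and WT (blue); the numbers at the right are members called higher and lower in Tg out of those tested. Medians have opposite signs for cholesterol synthesis (0.58 and -0.45 up to squalene, 0.40 and -0.79 after it), and the widest gap is that of MHC class II presentation (0.39 and 1.82).

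Among secreted proteins of the complement and clotting systems 7 of 29 rose in Tg (24.1%, against 5.07% of all genes) and none fell (median 0.20). In WT 2 rose and 6 fell, against 10.7% and 8.09% of all genes (median -0.09). The difference was called for 6, all more positive in Tg, against 2.17% of all genes. Klkb1, the precursor of plasma kallikrein, rose 1.42-fold (10.55, 10.53, 10.45 and 10.29 against 10.96, 10.99, 10.90 and 10.98, adjusted p = 0.00141) and fell in WT (-0.39), a difference of 0.90 (adjusted p = 0.000523). Mbl2, a mannose-binding lectin of complement, rose 1.56-fold (10.84, 10.73, 10.63 and 10.45 against 11.50, 11.14, 11.17 and 11.40, adjusted p = 0.00176) and fell in WT (-0.42, difference 1.06, adjusted p = 0.000987). F11, a clotting protease, rose 1.62-fold (adjusted p = 0.00525; difference 0.97, adjusted p = 0.00912), and C4b, a complement component, 1.65-fold with overlapping groups (adjusted p = 0.0114).

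Further plasma proteins among the named genes rose too. Afm, a carrier of vitamin E, rose 1.41-fold (9.96 to 10.45 against 10.58 to 10.85, adjusted p = 0.00921) and fell in WT (-0.42, difference 0.92, adjusted p = 0.00313). Igfals, which stabilises circulating IGF1, rose 1.38-fold with overlapping groups (adjusted p = 0.0271) and fell in WT (-0.47). The Igfals call was lost without any single Tg array other than chow replicate 2 and Western diet replicate 3 (log2 0.40 to 0.48). Saa4, a constitutive serum amyloid, rose 1.82-fold (9.79 to 10.61 against 10.87 to 11.42, adjusted p = 0.0047), and its WT change was 0.24 with no called difference (adjusted p = 0.157). Of 22 acute phase genes 2 were called in Tg (9.09%, against 9.73% of all genes), both higher, and 1 without Tg Western diet replicate 2.

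The unfolded protein response was represented by 22 genes, of which 5 rose and none fell in Tg, against 5.07% of all genes higher (median 0.13, WT -0.02). The Tg median was 0.24, 0.08 and 0.05 without Tg Western diet replicate 1, 3 and 4. The list had 3 differences more positive in Tg, against 2.17% of all genes. In Tg 3 members were called without Tg chow replicate 1 or 2 or Tg Western diet replicate 2 or 4. Ero1b, an oxidase that forms disulphide bonds, rose 1.87-fold (8.08, 8.02, 8.21 and 8.34 against 8.73, 9.10, 9.11 and 9.34, adjusted p = 0.000776). Hyou1, a chaperone, rose 1.58-fold (6.74 to 7.08 against 7.42 to 7.62, adjusted p = 0.00557; difference 0.86, adjusted p = 0.0135), and Pdia4, a disulphide isomerase, 1.42-fold (9.49 to 9.67 against 9.89 to 10.28, adjusted p = 0.00101; difference 0.66, adjusted p = 0.00307). The groups did not overlap for any of the 3.

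Drug-metabolising genes moved in both directions. Of 25 cytochrome P450 genes of families 1 to 3, 3 rose and 1 fell, and of 19 glutathione S-transferases 3 rose and 3 fell, against 5.07% and 4.66% of all genes. The median of the P450 list was 0.15, and 0.08 without Tg chow replicate 3 or 4, 0.01 without Tg Western diet replicate 1 and 0.09 without replicate 4. Cyp2b10, a target of the xenobiotic receptor CAR, read 6.53 to 7.86 on chow and 6.07 to 6.34 on the Western diet (log2 -1.0, adjusted p = 0.00918), and since its Western diet mean lies under the filter no fold is given. Cyp2c50, one of a group of near-identical genes, rose 1.57-fold (adjusted p = 0.00919). Gstp1, the male-enriched transferase of mouse liver with a near-identical copy, fell 1.94-fold (13.68 to 13.78 against 12.30 to 13.14, adjusted p = 0.00071) and fell in WT (-0.58). Gstt1 rose 1.67-fold (10.24 to 10.53 against 10.85 to 11.52, adjusted p = 0.00201). Gstt3 rose 1.64-fold with overlapping groups (adjusted p = 0.0286), a call lost without Tg chow replicate 1, 2 or 4 or Tg Western diet replicate 1 or 4 (log2 0.55 to 0.71) and under median scaling (0.70).

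Alcohol and aldehyde dehydrogenases were split. Aldh1a1, which makes retinoic acid, rose 1.68-fold (11.74 to 12.22 against 12.57 to 12.91, adjusted p = 0.00165) and Adh4 1.6-fold (10.47 to 11.03 against 11.37 to 11.57, adjusted p = 0.0018). Adh7 fell 1.77-fold (8.52 to 9.24 against 7.83 to 8.15, adjusted p = 0.00141). Cyp4f14, a hydroxylase of leukotrienes and fatty acids, rose 2.04-fold (10.32, 10.21, 10.04 and 9.60 against 11.22, 11.01, 10.77 and 11.29, adjusted p = 0.000911) and changed by -0.46 in WT, a difference of 1.49 (adjusted p = 0.00122).

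Hsd3b5 is one of 18 tested genes known to be higher in male than in female mouse liver. In Tg 2 of these rose and 1 fell (16.7% called, against 9.73% of all genes). In WT 2 rose and 7 fell, against 10.7% and 8.09% of all genes. The difference was more positive in Tg for 5, against 2.17% of all genes. C8b, a complement component of this list, changed by -0.25 in Tg (adjusted p = 0.426) and by -1.59 in WT, a difference of 1.35 (adjusted p = 0.00645). Of 9 female-biased genes 1 rose, Hamp2, and 1 fell, Cyp4a14 (22.2% called, against 9.73% of all genes).

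Immediate-early genes respond within minutes to stimuli that include tissue handling. In Tg 3 of 16 rose (18.8%, against 5.07% of all genes) and in WT 10 rose, against 10.7% of all genes. The medians were 0.13 and 0.81, the first 0.22 without Tg chow replicate 4. Zfp36, which destabilises inflammatory mRNAs, rose 2.12-fold (9.54, 9.83, 9.75 and 9.83 against 10.47, 10.81, 10.90 and 11.10, adjusted p = 0.000431). Fos read 6.21, 6.97, 6.75 and 7.95 on chow and 7.72, 8.83, 8.73 and 8.59 on the Western diet (log2 1.5, adjusted p = 0.0221), with overlap through Tg chow replicate 4. The Fos call was lost without Tg chow replicate 1 or 3 or Tg Western diet replicate 2 or 4 (log2 1.25 to 1.46). The list gave 6 calls without Tg chow replicate 4 and 1 without Tg chow replicate 1 or 3 or Tg Western diet replicate 2 or 4.

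Of 12 cell cycle and DNA replication genes 3 rose (25%, against 5.07% of all genes) and none fell. They were Ccnd1, Ccnd2, a second D-type cyclin (1.44-fold, 6.91 to 7.17 against 7.51 to 7.71, limma, adjusted p = 0.000646), and Mcm4, a part of the replication helicase (1.27-fold, 6.58 to 6.84 against 6.88 to 7.19, adjusted p = 0.0103). Per1, a clock gene, fell 1.49-fold (7.75 to 8.21 against 7.28 to 7.68, adjusted p = 0.00557) and fell in WT (-0.85). Of 53 respiratory chain genes 5 fell (9.43% called), 3 without Tg chow replicate 3 or Tg Western diet replicate 1 and 2 without Tg Western diet replicate 2 or 4. Of 36 ribosomal protein genes 1 rose and 3 fell (11.1%), and 1 or 2 were called without any single Tg array other than Western diet replicate 3. Both shares were near the 9.73% of all genes.

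Set side by side over all 7788 genes, the diet effects of the 2 genotypes had a Pearson r of 0.446 and a Spearman rho of 0.388. These correlations are across genes, which are not independent of each other. Of the 758 genes called in Tg, 273 (36%) were called in the same direction in WT, 133 higher and 140 lower in both. These are 18.7% of the 1463 WT calls. Of all genes, 10.7% were called higher and 8.09% lower in WT. For 129 of the Tg calls (17%) the difference between genotypes was itself called, against 5.42% of all genes. The difference is computed from the Tg effect, so these calls are not independent. For 293 genes the difference was called although the Tg effect was not.

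In 19 genes the effects were called in both genotypes with opposite signs, 15 higher in Tg and lower in WT and 4 the reverse. The 10 with the largest differences were Tnfrsf12a, Fdps, Stard4, Rdh11, Lss, Dhcr7, Mbl2, Pmvk, Igfals and Afm. Tnfrsf12a, the receptor of a TNF-related cytokine, was the one of these 10 that fell in Tg (7.84 to 9.41 on chow, 7.21 to 7.68 on the Western diet, log2 -0.90, adjusted p = 0.0295) and rose in WT (0.73, difference -1.63, adjusted p = 0.0118). Its call was lost without Tg Western diet replicate 2 (-0.82) or 4 (-0.83), and the change was -0.55 without Tg chow replicate 4, which read 9.41 where the other 3 chow arrays read 7.84 to 8.20.

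**Figure D5:**
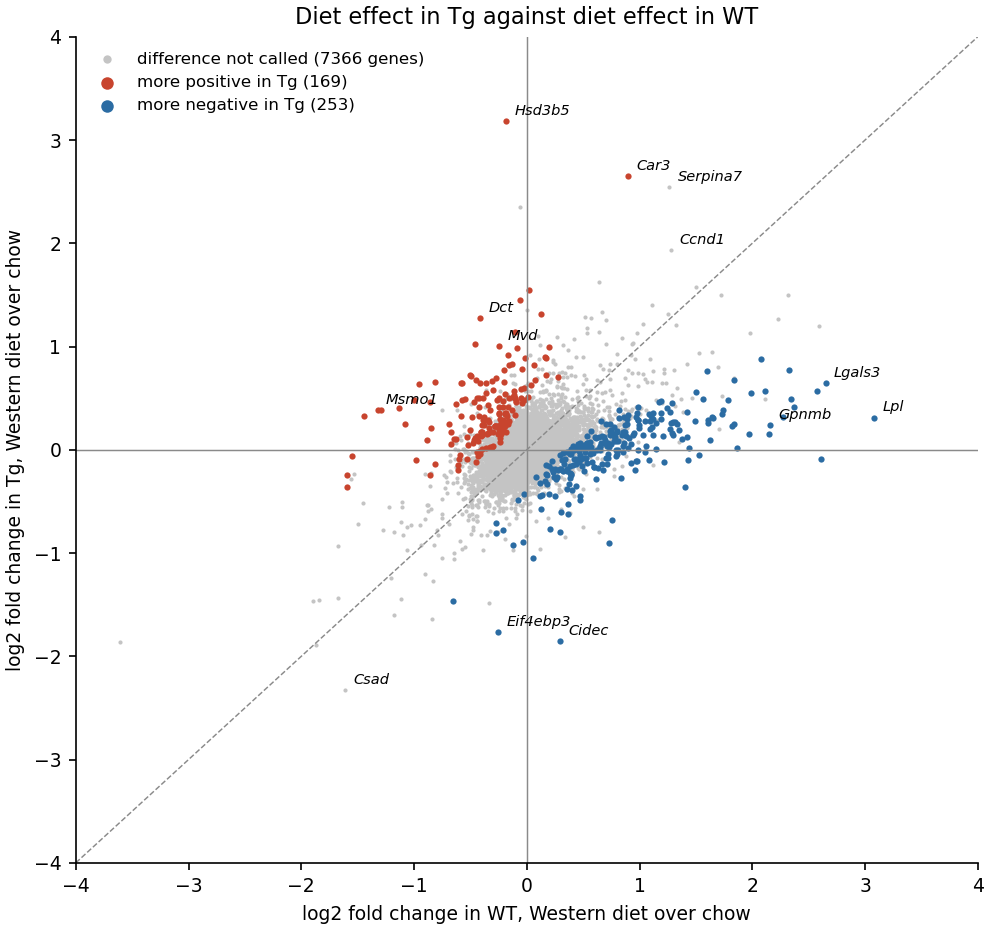
Log2 fold change, Western diet over chow, in Tg against WT for each of 7788 genes. Red marks the 169 genes with a called difference that is more positive in Tg, blue the 253 that are more negative, and the dashed line equal change. Hsd3b5 lies at 3.19 in Tg, Msmo1 at 0.39 and -1.32, and Lpl at 0.31 and 3.08.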

How the data were processed

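Liver RNA of 16 mice was read on Illumina bead arrays, 1 array per mouse and 4 per group, and groups were taken from the sample titles. The deposited intensity values, per the file headers, are raw signals per probe row, and normalized log2 values of the same arrays, also deposited by the authors with the scaling step not stated, were used as an alternative. Intensities were background-corrected with normexp (offset 50), quantile-normalized and log2-transformed in limma 3.58.1 (R 4.3.3). Of 25697 rows, 23978 had a gene name in GEO's platform annotation and 1719 had none. The upper 50% of rows by mean signal over all arrays (12846 rows, log2 6.287 or more) were kept, with 1 row per gene, which left 7788 genes. One limma model of the 4 groups (12 residual degrees of freedom) gave the diet effect in Tg, in WT and their difference, adjusted by Benjamini-Hochberg over all genes. The method was tested on simulated data.

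Genes named in the text are Cyp7a1, the 15 largest called increases and decreases without overlap between the Tg groups, the 10 of smallest adjusted p for the difference that were also called in Tg, the 10 largest opposite changes, and members of 48 gene lists; other genes were chosen after their values were seen. Members and lists were chosen with earlier results of these data known. Same-numbered Tg arrays did not deviate together (r of 0.068, -0.053, -0.011 and -0.206). With 4 arrays a group this check cannot exclude a pairing by number, and the model used none. Alternatives covered the background correction, scaling, filter, row rule, variance prior, arrays fitted, replicate block and leaving out each array. A further alternative was a term for replicates 1 and 2 against 3 and 4. Raw medians of the Tg arrays were 76.16 to 80.11 in replicates 1 and 2 and 70.33 to 72.89 in replicates 3 and 4. The number of arrays limits the precision. Where the labels do not tell how samples were handled within a group, p-values measure the spread between these arrays.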

Additional observations from a re-analysis of the deposited data

Results flagged for a closer look

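In 23 cases 1 array of a Tg group of 4 lay far from the other 3 by Dixon's criterion for groups of 4. Chance gives about 1 in 20 such cases, and 372 groups of values were examined. On the log2 signal scale these genes were concerned. Spink1 read 7.05 in Tg chow replicate 4 and 6.31 to 6.37 in the other 3. Etnppl read 8.0 in Tg Western diet replicate 2 and 8.30 to 8.33 in the other 3. Cyp51 read 10.996 in Tg Western diet replicate 3 and 11.29 to 11.32 in the other 3. Nsdhl read 9.40 in Tg Western diet replicate 1 and 9.14 to 9.18 in the other 3. Abcg5 read 11.05 in Tg chow replicate 4 and 11.45 to 11.49 in the other 3. Slco1b2 read 12.40 in Tg chow replicate 2 and 12.20 to 12.23 in the other 3. Acadl read 8.27 in Tg Western diet replicate 3 and 7.93 to 7.93 in the other 3. Acadvl read 11.99 in Tg Western diet replicate 3 and 11.71 to 11.73 in the other 3. Gys2 read 9.71 in Tg chow replicate 3 and 9.51 to 9.54 in the other 3. H2-Aa read 9.11 in Tg chow replicate 4 and 8.44 to 8.53 in the other 3. Hyou1 read 7.08 in Tg chow replicate 1 and 6.74 to 6.79 in the other 3.

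For gene lists the values are mean log2 signals relative to the Tg chow mean. The list of adipocyte, muscle, pancreas and erythroid markers averaged -0.28 in Tg chow replicate 3, against 0.08 to 0.11 in the other 3 arrays. The list of cholesterol synthesis after squalene averaged -0.18 in Tg chow replicate 1, against 0.04 to 0.08 in the other 3 arrays. The list of circadian clock averaged 0.40 in Tg Western diet replicate 4, against -0.07 to -0.01 in the other 3 arrays. The list of collagens averaged -0.17 in Tg chow replicate 4, against 0.06 to 0.06 in the other 3 arrays. The list of cytochrome P450 families 1 to 3 averaged 0.31 in Tg Western diet replicate 1, against 0.04 to 0.08 in the other 3 arrays. The list of fatty acid oxidation and PPARA targets averaged -0.06 in Tg Western diet replicate 3, against -0.43 to -0.39 in the other 3 arrays. The list of general macrophage and myeloid markers averaged 0.38 in Tg chow replicate 4, against -0.15 to -0.09 in the other 3 arrays. The list of glutathione S-transferases averaged 0.27 in Tg Western diet replicate 1, against -0.10 to -0.05 in the other 3 arrays. The list of lipid uptake and lipases averaged 0.15 in Tg Western diet replicate 3, against -0.04 to -0.02 in the other 3 arrays. The list of male-biased liver genes averaged -0.33 in Tg chow replicate 2, against 0.09 to 0.14 in the other 3 arrays. The list of resident Kupffer cell markers averaged 0.45 in Tg chow replicate 4, against -0.17 to -0.11 in the other 3 arrays. The list of triglyceride assembly averaged -0.21 in Tg chow replicate 4, against 0.05 to 0.09 in the other 3 arrays.

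The diet effect differed between Tg and WT by the test of the difference itself (limma, adjusted p under 0.05) for 61 of the genes described. Values in brackets are the Tg effect minus the WT effect on the log2 scale. For 7 of them, Hsd3b5, Nfe2, Dct, Mvd, Sqle, Gpnmb and Timp1, the mean of at least 1 group lies under the signal filter, so their bracketed values are not measured sizes and their place in the order carries no meaning. Leaving out single arrays ended the call of the difference for 10 genes: Cd163 (13 of the 16 arrays), Idi1 and Fads2 (12 each), Adh4 and Irgm1 (11 each), Gamt and Ero1b (9 each), Serpina6 (4), Dct (2) and Mcm4 (1). Without the signal filter the calls of Cd163, Idi1, Fads2, Adh4 and Gamt were lost. More positive in Tg were Hsd3b5 (3.37), Car3 (1.75), Msmo1 (1.71), Dct (1.69), Tm7sf2 (1.68) and Fdps (1.6). The next in size were Cyp51 (1.54), Nfe2 (1.53), Serpina6 (1.51), Cyp4f14 (1.49), Sqle (1.49) and Stard4 (1.47). Smaller positive differences were those of C8b (1.34), Hsd17b7 (1.33), Mvd (1.25), Rdh11 (1.23), Lss (1.22) and Gstt3 (1.2). Then came Gamt (1.19), Dhcr7 (1.13), Mbl2 (1.06), Idi1 (1.04), Fads1 (0.98) and Acss2 (0.97). These were followed by Igtp (0.97), F11 (0.97), Pmvk (0.95), Igfals (0.93), Afm (0.92) and Klkb1 (0.90). Further positive differences were those of Hyou1 (0.86), Sc5d (0.80), Nsdhl (0.75), Acly (0.75), Ero1b (0.74) and Fads2 (0.71). The smallest positive differences were those of Cd163 (0.67), Pdia4 (0.66), Insig1 (0.64), Adh4 (0.60), Mcm4 (0.45) and Irgm1 (0.43). More negative in Tg were Lpl (-2.77), Cidec (-2.15), Lgals3 (-2.01), Mmp12 (-2.01), H2-Ab1 (-1.96) and Gpnmb (-1.92). Next in size on the negative side were Cd74 (-1.85), Tnfrsf12a (-1.63), Ubd (-1.55), H2-Eb1 (-1.54), Trem2 (-1.52) and Eif4ebp3 (-1.51). Smaller negative differences were those of H2-Aa (-1.44), Laptm5 (-1.16), H2-DMb1 (-1.05), Arrdc4 (-0.81), Sparc (-0.79) and Timp1 (-0.77). The smallest negative differences were those of Pnpla2 (-0.57).

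Among 554 rows above the signal filter that carry no gene name in the annotation used, 52 were called between diets in Tg (9.39%, 30 higher and 22 lower). They belong to no comparison above.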

How the results depend on the processing

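Over the genes described, no log2 fold change in Tg and no difference between genotypes changed sign under any alternative: 2363 of 2461 values of the Tg effect stayed on their side of the threshold, 74 lost and 24 gained a call, and 1421 of 1513 values of the difference kept the call and 92 lost it. Leaving out single arrays gave 462 to 850 called genes in Tg, 1021 to 1643 in WT and 262 to 481 for the difference. With only the upper 25% of rows, 822 genes were called in WT and 260 for the difference, where fewer genes were tested. With a replicate block, a pairing that same-numbered Tg arrays did not show, 810 genes were called in Tg, 1460 in WT and 403 for the difference. A term for replicates 1 and 2 against 3 and 4 gave 854 called genes in Tg, 1560 in WT and 458 for the difference. Median scaling moved the median of all genes in Tg from -0.001 to 0.008. Signal near the filter limits what dim genes can show.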
